A study of Mus musculus with 6 samples.

Results

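The circadian clock genes examined here are 10 named genes, Arntl, Clock, Per1, Per2, Per3, Cry1, Cry2, Nr1d1, Nr1d2 and Bhlhe40. They were taken by name from the table of transcript levels, and the values of all listed transcripts of a gene were summed. All 10 were present among the 11808 genes of the table, with 18 of its 23242 transcripts. The samples are primary vascular smooth muscle cells, which contract to set the width of arteries, isolated from male C57BL/6 mice of 6 weeks of age (the label can be read as 12 mice) and kept in normal growth medium with serum. In 3 libraries the cells had been transfected with siRNA against Sirt7 (siSirt7), and in 3 with scrambled siRNA (siScrambled). Both siRNAs were used at 20 nM in genetically unaltered cells, and mRNA was sequenced at 48 h. Sirt7 encodes a NAD-dependent deacylase, and the comparison asks what its depletion does to gene expression.

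The mammalian clock is a loop of transcription factors that runs in most cells of the body. The proteins of Arntl (BMAL1) and Clock pair, bind E-boxes in DNA and switch on the Period, Cryptochrome and Nr1d genes. PER and CRY proteins return to the nucleus and inhibit that pair, while the Nr1d products (REV-ERB alpha and beta) repress Arntl. In blood vessels the clock is known for daily rhythms of tone and blood pressure. In mouse liver, SIRT7 is known to deacetylate the CRY1 protein. Proteins were not measured here, and neither a time of day nor a step that aligns the cells is named in the labels. A level below is an average over the culture at 48 h. Whether the cells were aligned is unknown, so a shift of phase cannot be told apart from a change of level.

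The levels are FPKM, fragments per kilobase of transcript scaled to the size of the library, as deposited. Log2 fold changes set siSirt7 against siScrambled after 1 was added to each FPKM value, so the change of low genes is understated. A gene is called where its limma p was under 0.05 after Benjamini-Hochberg adjustment over the 10854 genes that averaged 1 FPKM or more. The libraries summed to between 321944 and 333683 FPKM. Their depth in reads is unknown, and whether a group's 3 libraries stem from different isolations is not stated, so the p-values measure a spread between libraries that may be technical. Sirt7 had 0.96, 1.25 and 0.36 FPKM in the siSirt7 libraries, against 4.35, 3.56 and 4.48 FPKM in the siScrambled libraries (log2 fold change -1.49, limma adjusted p = 0.00388, and 0.0697 for its main transcript alone). Over all tested genes, 25.2% were called, 12.7% higher and 12.5% lower. Of 7 smooth muscle markers, 1 was called higher and 4 lower, and their summed level was 3429 to 3608 FPKM with siSirt7 and 3754 to 3788 FPKM with siScrambled. All 5 mesothelial markers were listed, at a summed level of 85.3 to 93.4 FPKM with siSirt7 and 95.95 to 104.5 FPKM with siScrambled, with 1 of the 4 tested, Upk3b, called lower. The 5 adventitial fibroblast markers summed to 75.1 to 76.5 FPKM with siSirt7 and 68.6 to 84.0 FPKM with siScrambled. Of the 3 tested, 2 were called lower. The most abundant, Ly6a, was higher without overlap but not called (log2 fold change 0.34, limma adjusted p = 0.111). The macrophage markers summed to 20.2 to 22.8 FPKM with siSirt7 and 18.1 to 21.2 FPKM with siScrambled. Most of this was Lyz2, at a mean of 18.7 FPKM with siSirt7 and 18.0 FPKM with siScrambled. Ptprc and Adgre1 had no listed transcript. Of the 2 tested macrophage markers, 0 were called or had an unadjusted p under 0.05. Of 5 endothelial markers, 0 had a listed transcript. In such bulk samples, fewer cells of a type and less RNA per cell cannot be told apart, and the part of these cells in the clock gene results was not tested.

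Of the 10 clock genes, 2 were called higher with siSirt7 (Bhlhe40 and Per3) and 1 lower (Per2). The repressor gene Bhlhe40 rose 1.54-fold, Per3 rose 1.37-fold, and Per2 fell 1.52-fold. The other 7, which include the activator genes Arntl and Clock, both Cryptochromes and both REV-ERB genes, were not called. Beside the 25.2% called over all tested genes (12.7% higher and 12.5% lower), 3 of 10 is near the share for genes in general. The median log2 fold change was -0.06 over the 10 clock genes and -0.0046 over all tested genes. The clock gene median was -0.13 without siSirt7 replicate 2, and 0.014, on the other side of 0, with the main transcript of each gene. The median size of the change, without its sign, was 0.23 over the 10 and 0.17 over all.

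**Figure D1:**
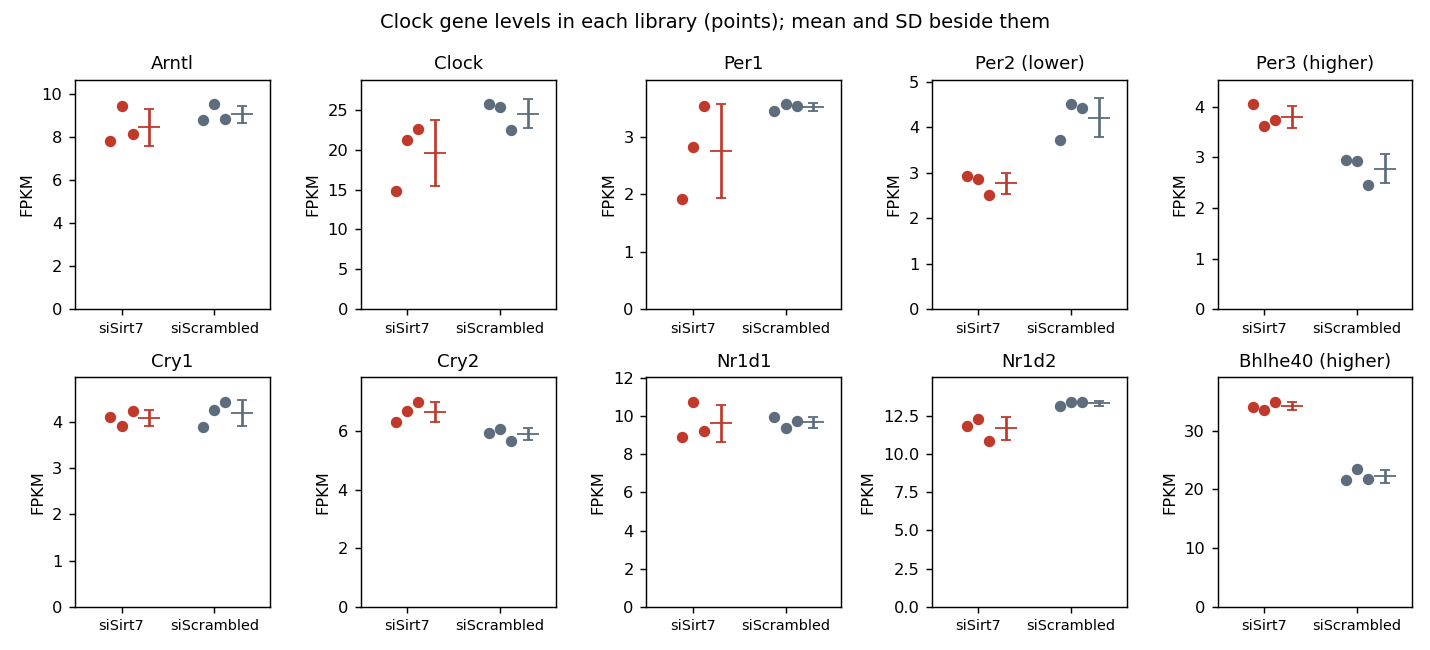
FPKM of each clock gene (vertical axes, each starting at 0) in the 3 siSirt7 and 3 siScrambled libraries (points), with the mean and SD beside them. The groups do not overlap for Per2, Per3, Cry2, Nr1d2 and Bhlhe40, and the siSirt7 points of Clock and Per1 spread far more than the siScrambled points.

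Bhlhe40 (ENSMUSG00000030103.11, main transcript on chromosome 6, 108660629 to 108666925, plus strand, GRCm38) encodes DEC1, a basic helix-loop-helix repressor that binds E-boxes and dampens activation by BMAL1 and CLOCK. Its level was 33.96, 33.6 and 34.9 FPKM in the siSirt7 libraries, against 21.5, 23.4 and 21.7 FPKM in the siScrambled libraries. All siSirt7 libraries lay above all siScrambled libraries, and the gap between the groups was far wider than the spread within either. The means were 34.1 ± 0.66 FPKM with siSirt7 and 22.2 ± 1.06 FPKM with siScrambled (SD, n = 3 each). On the log2 scale limma put the rise at 0.60 with an SE of 0.048 and an interval (95%) of 0.48 to 0.71 (adjusted p = 0.000652). A change of at least this size in either direction was found in 7.14% of the tested genes. Its paralog Bhlhe41, which encodes DEC2, had 3.04, 2.31 and 2.80 FPKM with siSirt7, against 2.61, 2.69 and 2.69 FPKM with siScrambled, and was not called (log2 fold change 0.016, 95% interval -0.22 to 0.25, adjusted p = 0.923). The difference between the paralogs' fold changes was not tested.

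Nearly all of the Bhlhe40 signal came from 1 transcript. Bhlhe40-201 had 32.8, 32.9 and 34.1 FPKM with siSirt7, against 19.7, 23.1 and 21.4 FPKM with siScrambled, and was called higher when tested alone (log2 fold change 0.62, limma adjusted p = 0.00666). The short Bhlhe40-202 averaged 0.84 ± 0.24 FPKM with siSirt7 and 0.79 ± 0.88 FPKM with siScrambled (SD, n = 3 each), too low to test.

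The 3 Period genes encode the PER proteins, and they did not move as 1 group. Per2 (chromosome 1, 91415982 to 91459324, minus strand) is, with Per1, a main repressor of the loop. It had 2.92, 2.85 and 2.51 FPKM in the siSirt7 libraries, against 3.71, 4.50 and 4.41 FPKM in the siScrambled libraries. The groups did not overlap, and siSirt7 was lower throughout. The means were 2.76 ± 0.22 FPKM with siSirt7 and 4.21 ± 0.43 FPKM with siScrambled (SD, n = 3 each). The limma log2 fold change was -0.47, with an SE of 0.096 and an interval (95%) from -0.70 up to -0.24 (adjusted p = 0.016). The call was lost when siScrambled replicate 2 (adjusted p = 0.0581) or siScrambled replicate 3 (adjusted p = 0.0561) was left out, and where single transcripts were tested across the table (adjusted p = 0.0671).

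Per3 (chromosome 4, 151003652 to 151044665, minus strand) encodes a PER protein that is dispensable for the core rhythm in mice. It had 4.05, 3.61 and 3.74 FPKM in the siSirt7 libraries, against 2.95, 2.93 and 2.44 FPKM in the siScrambled libraries. Here all siSirt7 libraries were higher. The means were 3.80 ± 0.22 FPKM with siSirt7 and 2.78 ± 0.29 FPKM with siScrambled (SD, n = 3 each). The limma log2 fold change was 0.35, with an SE of 0.090 and an interval (95%) from 0.13 up to 0.57 (adjusted p = 0.0363). This call rests on all 6 libraries, since leaving out any 1 of them gave an adjusted p between 0.0652 and 0.0979, with log2 fold changes of 0.28 to 0.38. Tested as a single transcript it had an adjusted p of 0.130.

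Per1 (chromosome 11, 69098948 to 69109960, plus strand) is the Period gene best known for a rapid response to hormones and cAMP. It had 1.91, 2.83 and 3.53 FPKM in the siSirt7 libraries, against 3.44, 3.57 and 3.54 FPKM in the siScrambled libraries. The siScrambled libraries were nearly equal, while the siSirt7 libraries ranged widely and their highest lay among the siScrambled values. Per1 was not called (log2 fold change -0.29, 95% interval -0.69 to 0.11, limma adjusted p = 0.254). Its log2 fold change was -0.12 without siSirt7 replicate 1 and -0.44 without siSirt7 replicate 3, and it was called in neither.

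Set side by side, Per3 and Per2 stood in opposite order in the groups. The ratio of Per3 to Per2, both per length, was 1.39, 1.27 and 1.49 in the siSirt7 libraries, against 0.796, 0.652 and 0.554 in the siScrambled libraries. Per3 was thus the more abundant of the pair in each siSirt7 library and the less abundant in each siScrambled library. The log2 ratio differed by 1.06, with a two-sided exact permutation p of 0.1, the smallest that 3 against 3 allows, and the ratio was chosen after the values were seen. The sum of the 3 Period genes was 9.31 ± 0.45 FPKM with siSirt7 and 10.5 ± 0.46 FPKM with siScrambled (SD, n = 3 each), and Per3 made up 40.9% ± 4.09 of it with siSirt7 and 26.5% ± 2.86 with siScrambled.

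**Figure D2:**
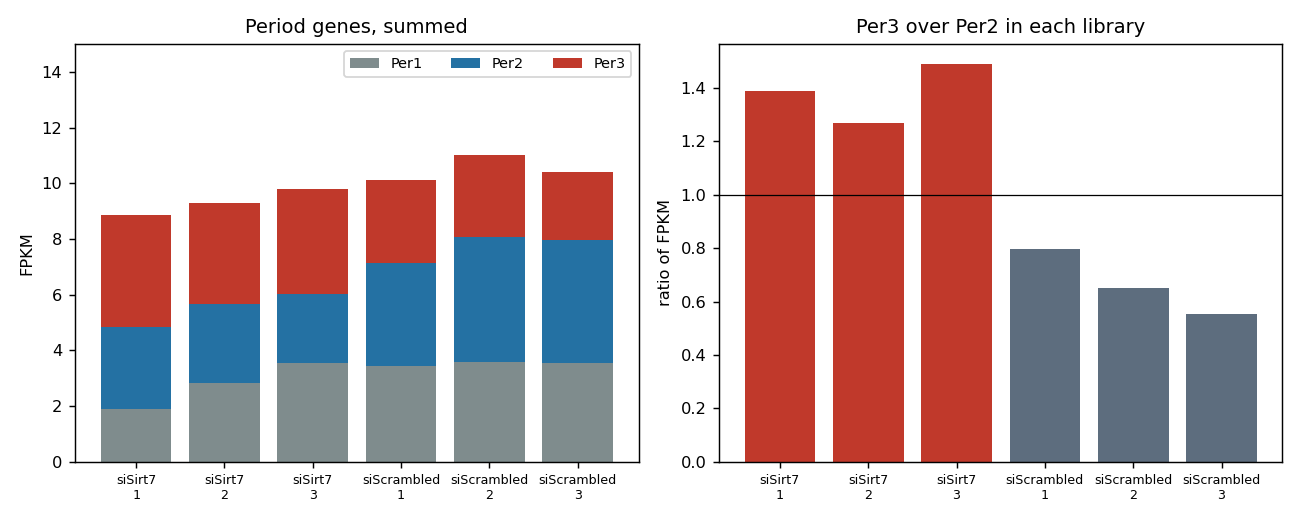
Left, FPKM of Per1, Per2 and Per3 stacked for each library, siSirt7 libraries before siScrambled libraries. Right, the ratio of Per3 to Per2 in each library, with a line at 1, where the siSirt7 bars reach 1.27 to 1.49 and the siScrambled bars stay at 0.554 to 0.796.

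The activator genes were not called. Arntl (chromosome 7, 113207465 to 113314126, plus strand) had 7.80, 9.44 and 8.15 FPKM with siSirt7, against 8.82, 9.53 and 8.87 FPKM with siScrambled (log2 fold change -0.09, 95% interval -0.29 to 0.11, limma adjusted p = 0.457). Clock (chromosome 5, main transcript 76213853 to 76274012, minus strand) had 14.8, 21.2 and 22.7 FPKM with siSirt7, against 25.7, 25.4 and 22.5 FPKM with siScrambled. For both genes the groups overlapped, and the lowest value was in siSirt7 replicate 1, by a wide margin for Clock. The log2 fold change of Clock was -0.33 (95% interval -0.71 to 0.05, adjusted p = 0.181), and it ran from -0.44 to -0.15 as each library was left out in turn. The paralogs of this arm were low. Arntl2 averaged 1.11 ± 0.41 FPKM with siSirt7 and 1.56 ± 0.44 FPKM with siScrambled (SD, n = 3 each; adjusted p = 0.329), and Npas2, which can stand in for Clock, averaged 0.84 ± 0.20 FPKM with siSirt7 and 0.65 ± 0.13 FPKM with siScrambled, below the level tested.

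The Cryptochrome genes encode CRY1 and CRY2, the strongest inhibitors of the activator pair. Cry1 (chromosome 10, 85131700 to 85185064, minus strand) had 4.11, 3.91 and 4.24 FPKM with siSirt7, against 3.89, 4.26 and 4.43 FPKM with siScrambled. The groups lay on top of each other (log2 fold change -0.03, 95% interval -0.21 to 0.15, limma adjusted p = 0.801). Cry2 (chromosome 2, 92403646 to 92434043, minus strand) had 6.32, 6.70 and 7.004 FPKM with siSirt7, against 5.95, 6.09 and 5.67 FPKM with siScrambled. Its groups did not overlap, siSirt7 being higher, but it was not called (log2 fold change 0.15, 95% interval -0.0080 to 0.31, adjusted p = 0.149).

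The REV-ERB genes Nr1d1 and Nr1d2 encode heme-binding nuclear receptors that repress Arntl. Nr1d1 (chromosome 11, 98767932 to 98775333, minus strand) had 8.92, 10.7 and 9.22 FPKM with siSirt7, against 9.93, 9.37 and 9.75 FPKM with siScrambled (log2 fold change -0.011, 95% interval -0.20 to 0.18, limma adjusted p = 0.935). Nr1d2 (chromosome 14, 18204054 to 18239127, minus strand) had 11.9, 12.3 and 10.8 FPKM with siSirt7, against 13.1, 13.4 and 13.4 FPKM with siScrambled. Nr1d1 overlapped between the groups, while each siSirt7 library of Nr1d2 lay below each siScrambled library. Nr1d2 missed the threshold (log2 fold change -0.18, 95% interval -0.32 to -0.029, adjusted p = 0.0832). In all, the groups did not overlap for 5 of the 10 clock genes, against 43.9% of all tested genes.

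**Figure D3:**
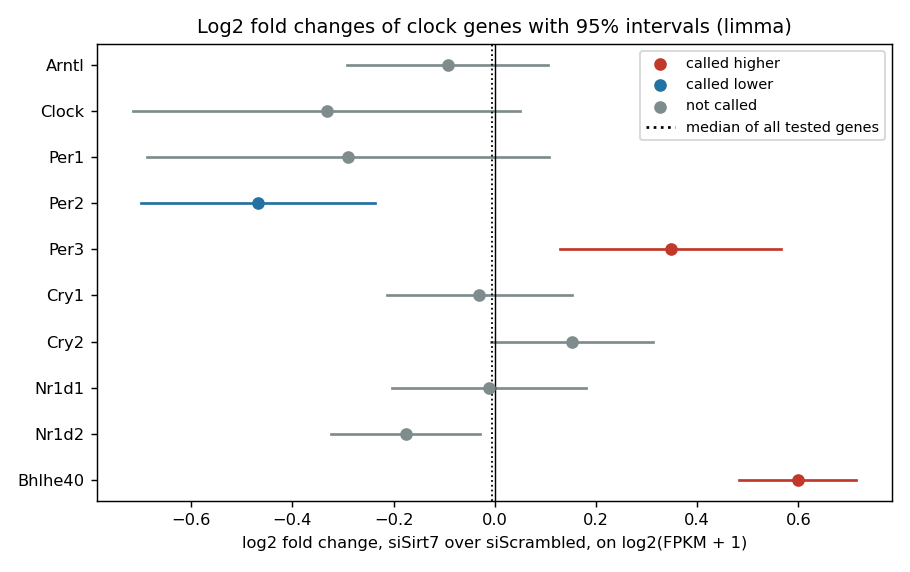
Log2 fold change of each clock gene, siSirt7 against siScrambled, from log2(FPKM + 1) values (horizontal axis), with 95% limma intervals. Bhlhe40 and Per3 (red) were called higher and Per2 (blue) lower, and the dotted line is the median of all tested genes, -0.0046.

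Ordered by level with siSirt7, the clock genes ran from Bhlhe40 (34.1 FPKM) through Clock, Nr1d2, Nr1d1, Arntl, Cry2, Cry1, Per3 and Per2 to Per1 (2.76 FPKM). With siScrambled the order ran from Clock (24.6 FPKM) through Bhlhe40, Nr1d2, Nr1d1, Arntl, Cry2, Per2, Cry1 and Per1 to Per3 (2.78 FPKM). With siSirt7 the neighbours Nr1d1 and Arntl, Cry1 and Per3, and Per2 and Per1 overlapped between libraries. With siScrambled the overlapping neighbours were Clock and Bhlhe40, Nr1d1 and Arntl, and Per2 and Cry1. Bhlhe40 thus stood clear above Clock with siSirt7 and overlapped it with siScrambled, and Per3 stood below all other clock genes with siScrambled. Among the tested genes the 10 ranged from percentile 19 of the mean for Per1 to 78.5 for Bhlhe40.

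For the 5 clock genes with more than 1 listed transcript, the split between transcripts was examined next. For Per1, Per1-201 held 2.92 and 2.78 FPKM in siScrambled replicates 1 and 2 and 0.16 FPKM in replicate 3, where Per1-203 was listed at 3.18 FPKM and at 0 in the other 5 libraries. The Per1 sum in these 3 libraries stayed between 3.44 and 3.57 FPKM. For Clock, the main transcript Clock-204 had 6.32, 11.7 and 12.4 FPKM with siSirt7, against 12.4, 11.7 and 12.6 FPKM with siScrambled, so the low Clock sum of siSirt7 replicate 1 was mostly a low Clock-204. Arntl-201, the main Arntl transcript, averaged 6.81 ± 0.81 FPKM with siSirt7 and 5.77 ± 0.60 FPKM with siScrambled (SD, n = 3 each). Its log2 fold change of 0.20 had the opposite sign to the sum, with a limma adjusted p of 0.382. For Cry2 the shorter Cry2-202 averaged 1.37 ± 0.30 FPKM with siSirt7 and 0.76 ± 0.39 FPKM with siScrambled (adjusted p = 0.337). Per2, Per3, Cry1, Nr1d1 and Nr1d2 had 1 listed transcript each. No source used here says how reads shared by transcripts were divided.

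**Figure D4:**
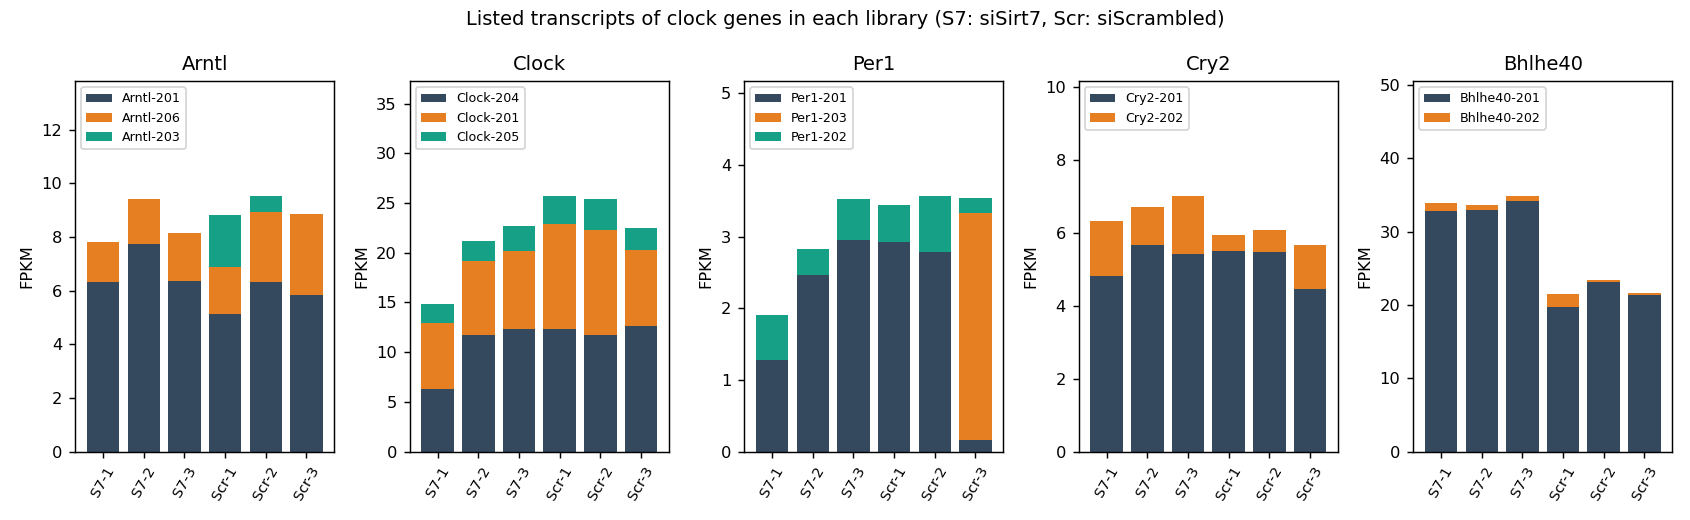
FPKM of the listed transcripts, stacked, for the 5 clock genes with more than 1, in each siSirt7 (S7) and siScrambled (Scr) library. The Per1-203 block appears in siScrambled replicate 3 alone, and the Clock-204 block is shortest in siSirt7 replicate 1.

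Clock genes are read through short DNA elements near their start sites, and the promoter stretches that hold them are given to show which clock genes carry which element. RefSeq windows of 300 bases (GRCm38.p6), from 250 bases before to 50 after a start site, matched 8 of the 10 genes, with 12 windows. Per2 and Bhlhe40 had no match. Each was searched on both strands for the E-box CACGTG, its variant CACGTT, the REV-ERB and ROR element TAGGTCA and the D-box TTATGTAA. Among all 32851 windows these were present in 7.15%, 4.68%, 2.61% and 0.938%. Capitals mark the matches, all sequences are 5′ to 3′ on the gene's strand, and a match is a description of letters and not a bound site.
Per3, chr4:151044796-151044890, minus strand: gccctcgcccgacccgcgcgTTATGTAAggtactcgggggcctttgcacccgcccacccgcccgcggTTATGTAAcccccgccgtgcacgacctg
Per1, chr11:69098763-69098808, plus strand: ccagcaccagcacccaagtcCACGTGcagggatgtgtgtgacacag
Cry1, chr10:85185089-85185153, minus strand: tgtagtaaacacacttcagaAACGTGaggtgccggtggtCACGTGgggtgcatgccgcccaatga
Cry2, chr2:92434210-92434255, minus strand: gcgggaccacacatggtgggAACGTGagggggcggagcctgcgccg
Nr1d1, chr11:98775380-98775425, minus strand: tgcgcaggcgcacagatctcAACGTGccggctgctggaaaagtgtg
Arntl, chr7:113207530-113207559, plus strand: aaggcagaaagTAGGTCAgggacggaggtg

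The Per3 window held 2 D-boxes, whose first bases lie at -205 and -158 from the start site, and neither form of E-box. Per1 and Cry1 each held 1 E-box, Cry1, Cry2 and Nr1d1 each held 1 CACGTT (read on the other strand as AACGTG), and Arntl held 1 TAGGTCA, at base 31 after the second of its start sites. The windows of Clock and Nr1d2 held none of these letters. The Clock windows lie between 76303453 and 76305042 on chromosome 5. They do not cover the start of the main transcript Clock-204, at 76274012.

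D-boxes are known to be bound by the PAR bZIP activators Dbp, Tef and Hlf and by the repressor Nfil3. Of the 3 of these genes tested, 1 was called higher and 0 lower, where 12.7% of all tested genes were called higher, with a median log2 fold change of 0.29. Tef had 10.3, 10.98 and 11.9 FPKM with siSirt7, against 7.89, 8.63 and 8.45 FPKM with siScrambled, without overlap (log2 fold change 0.37, 95% interval 0.19 to 0.54, limma adjusted p = 0.0139). Dbp had 9.69, 11.5 and 10.01 FPKM with siSirt7, against 7.64, 8.96 and 8.46 FPKM with siScrambled, and Nfil3 had 17.8, 15.4 and 16.5 FPKM with siSirt7, against 13.6, 14.7 and 14.8 FPKM with siScrambled. Neither was called (adjusted p = 0.0626 and 0.0916), though in both all siSirt7 libraries were higher. Over all tested genes, the groups did not overlap for 43.9%, in either direction. Hlf was not analysed here. The part of these factors in the level of Per3 was not tested.

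Certain short words in the 3' UTR had been tied to lower fold changes in an earlier look at these same libraries, so they are no independent evidence here, and they are shown because they mark some clock genes and not others. Of the 10 clock genes, 4 hold ATATGTA or TATGTAA in the 3' UTR of the main transcript. They are Per2, Clock, Nr1d2 and Bhlhe40, with 3' UTRs of 1593 (Bhlhe40) to 2846 bases (Clock). Of the others, Nr1d1, Arntl, Per1 and Cry1 have 288 to 612 bases, and Cry2 and Per3 have 2177 and 2224. Among 10323 tested genes with a 3' UTR of at least 50 bases, 15.7% hold ATATGTA, 15.1% TATGTAA and 22.9% either word. A further word of that earlier look, CGGAGAA, is held by 0 of the 10 clock genes and by 2.2% of these genes. The sites, with the word in capitals, lie as follows in GRCm38 (GENCODE vM21 transcripts).
Per2, chr1:91416895-91416921, minus strand: ctcccactctATATGTAtatactccta
Clock, first site, chr5:76215749-76215775, minus strand: ttggaatattTATGTAAatggttttca
Clock, second site, chr5:76214494-76214520, minus strand: acatgctagtTATGTAAtgcctgctgt
Nr1d2, first site, chr14:18206096-18206122, minus strand: agataggcacTATGTAAataaggtgaa
Nr1d2, second site, chr14:18204789-18204816, minus strand: gtctttggaaATATGTAAccagaactgt
Bhlhe40, chr6:108665495-108665521, plus strand: gtatgtttgtATATGTAggacaataag

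The log2 fold changes of the 4 were -0.47 for Per2, -0.33 for Clock, -0.18 for Nr1d2 and 0.60 for Bhlhe40, the last with the word and the highest rise of the 10. The other 6 clock genes ran from -0.29 (Per1) to 0.35 (Per3). The part of these words, and of the length of the 3' UTR, in the values was not tested.

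The wider clock machinery went both ways. Besides the 10, lists of 64 paralogs, outputs, kinases, ubiquitin ligases, cofactors and inputs of the clock had 57 tested genes, of which 6 were called higher and 10 lower. That is 28.1%, beside 25.2% of all tested genes, and the median log2 fold change was -0.07. Of the 4 tested paralogs and loop partners, 0 were called by limma, and 0 had an unadjusted p under 0.05. Besides Arntl2 and Bhlhe41 these were Ciart, an E-box repressor, and Rora, which activates Arntl where REV-ERB represses it, with log2 fold changes of 0.16 and -0.04.

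Of 14 tested kinases, ubiquitin ligases and a deubiquitinase that act on clock proteins, 1 was called higher and 2 lower. That is 21.4%, beside 25.2% of all tested genes, and the median log2 fold change of the 14 was -0.18. The casein kinase 1 genes, whose products phosphorylate PER proteins, moved apart. Csnk1d had 21.0, 20.4 and 20.6 FPKM with siSirt7, against 26.4, 25.1 and 26.9 FPKM with siScrambled (log2 fold change -0.32, limma adjusted p = 0.00413). Csnk1e had 34.6, 35.96 and 34.6 FPKM with siSirt7, against 27.3, 27.5 and 30.5 FPKM with siScrambled (log2 fold change 0.29, adjusted p = 0.0113). Neither gene overlapped between the groups, and the signs were opposite. Both calls were lost with the main transcript alone, at -0.15 on the log2 scale for Csnk1d (adjusted p = 0.719) and 0.25 for Csnk1e (adjusted p = 0.0991). Gsk3b, a kinase of several clock proteins, was called lower (log2 fold change -0.34, adjusted p = 0.0435). The call was lost when any 1 library other than siSirt7 replicate 3 was left out, with adjusted p up to 0.122. Its main transcript alone was not called (log2 fold change -0.18, adjusted p = 0.209). Without the trend and robust options of limma the adjusted p of Gsk3b was 0.055.

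Of 12 cofactors, 0 were called higher and 2 lower (16.7%, beside 25.2% of all tested genes). Both are histone acetyltransferases known to assist the activator pair. Ep300 had 6.87, 7.14 and 7.21 FPKM with siSirt7, against 9.56, 9.46 and 9.92 FPKM with siScrambled (log2 fold change -0.40, limma adjusted p = 0.00418), and Kat2b had 14.4, 14.8 and 15.1 FPKM with siSirt7, against 20.1, 20.7 and 18.4 FPKM with siScrambled (log2 fold change -0.40, adjusted p = 0.00498). In both, every siSirt7 library lay below every siScrambled library. The cofactor gene Crebbp went the other way, with every siSirt7 library above every siScrambled library. It was not called (log2 fold change 0.13, adjusted p = 0.184). The corepressor genes of REV-ERB, Ncor1 and Hdac3, were not called (log2 fold changes 0.02 and -0.29, adjusted p = 0.736 and 0.149), though the groups did not overlap for Hdac3.

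Of 11 genes that carry signals into the clock, 1 was called higher and 3 lower (36.4%, beside 25.2% of all tested genes). The immediate-early factor Egr1 had 16.1, 17.3 and 16.6 FPKM with siSirt7, against 27.1, 27.3 and 27.1 FPKM with siScrambled (log2 fold change -0.67, limma adjusted p = 0.000368). Creb1, the cAMP-responsive activator of Per1, had 6.24, 6.12 and 6.36 FPKM with siSirt7, against 8.08, 8.52 and 8.52 FPKM with siScrambled (log2 fold change -0.37, adjusted p = 0.006). Both fell without overlap between the groups, and Creb1 had an adjusted p of 0.0697 for its main transcript alone. The glucocorticoid receptor gene Nr3c1 fell (log2 fold change -0.24, adjusted p = 0.0158, and 0.059 at most without siScrambled replicate 2 or 3). Its main transcript alone was not called (log2 fold change -0.20, adjusted p = 0.374). With the replicate number as a block the adjusted p of Nr3c1 was 0.0594. Sik1, a kinase that restrains CREB coactivators, was called higher (log2 fold change 0.35, adjusted p = 0.0482). Its adjusted p ran from 0.0707 to 0.124 as any 1 library was left out. The limma adjusted p of Sik1 was 0.1075 with the replicate block and 0.1642 as a single transcript.

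Of 13 genes known to follow the clock in many tissues, 3 were called higher and 3 lower (46.2%, beside 25.2% of all tested genes), with a median of 0.03. Pdk4, a kinase that restrains pyruvate use, had 5.49, 5.55 and 5.39 FPKM with siSirt7, against 2.94, 2.88 and 3.40 FPKM with siScrambled (log2 fold change 0.67, limma adjusted p = 0.00237). Wee1, the mitosis-delaying kinase with E-boxes in mouse, had 2.92, 3.14 and 3.17 FPKM with siSirt7, against 4.74, 4.55 and 4.81 FPKM with siScrambled (log2 fold change -0.48, adjusted p = 0.0048). The groups stayed apart for both. The zinc finger factor genes Klf9 and Klf10 were called higher (log2 fold changes 0.31 and 0.42, adjusted p = 0.0063 and 0.0119), and the main Klf10 transcript tested alone went the other way, at -0.52, uncalled (adjusted p = 0.769). Tsc22d3 and Fkbp5 were called lower (log2 fold changes -0.67 and -0.37, adjusted p = 0.0194 and 0.0257). Tsc22d3 lost its call without siSirt7 replicate 2 or 3 or siScrambled replicate 1, with adjusted p up to 0.059. Fkbp5 lost its call without siSirt7 replicate 1 or 3 or siScrambled replicate 2 or 3, with adjusted p up to 0.0821. In the test of single transcripts both calls were lost, at limma adjusted p of 0.0639 for Tsc22d3 and 0.0803 for Fkbp5. Nampt, the NAD synthesis enzyme whose rhythm ties the clock to sirtuins, had 9.45, 12.7 and 12.3 FPKM with siSirt7, against 8.09, 9.09 and 7.16 FPKM with siScrambled, without overlap but not called (log2 fold change 0.45, adjusted p = 0.0524).

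**Figure D5:**
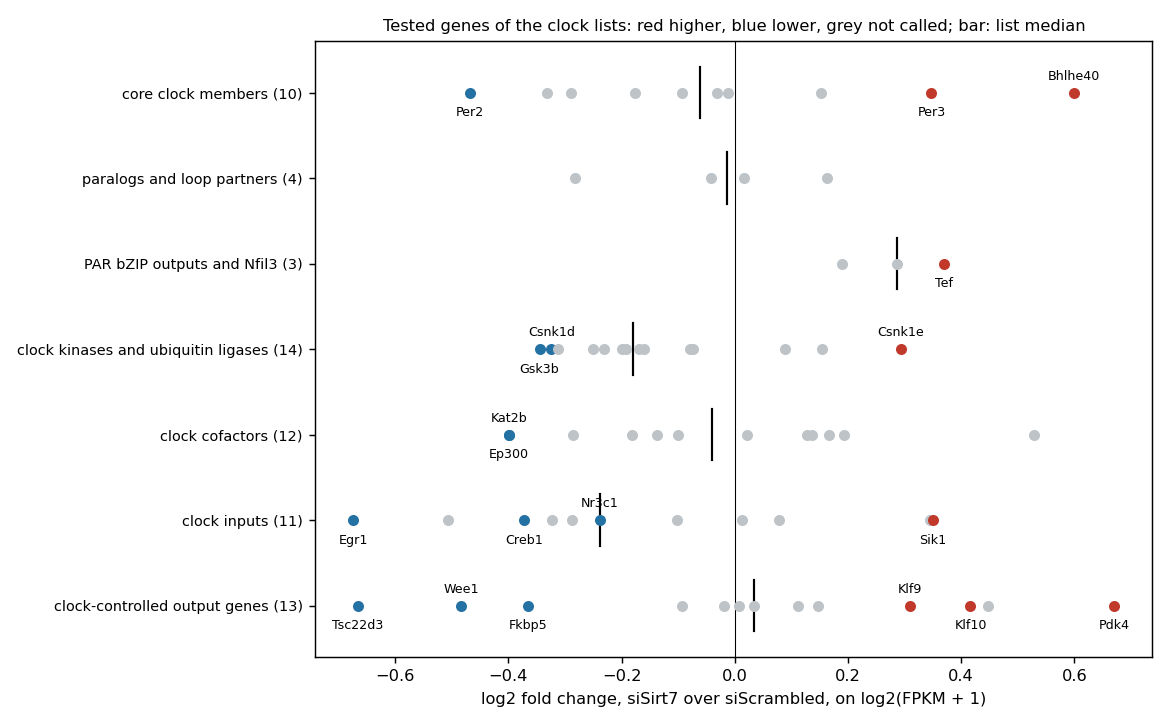
Log2 fold change, siSirt7 over siScrambled, of each tested gene (points) of the 10 clock genes and 6 lists of clock-related genes (rows, number tested in brackets), with called genes named and list medians as bars. Called genes lie on both sides of 0 in 4 of the 7 rows.

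The genes whose levels across the 6 libraries ran most like Bhlhe40 were Rrn3, Chp1 and Socs5. They were picked among 7536 other genes averaging 5 FPKM or more by the mean absolute difference of centred log2(FPKM + 1) values, which was 0.0116, 0.0269 and 0.0324. Rrn3 had 24.2, 24.5 and 25.3 FPKM with siSirt7, against 15.7, 16.95 and 15.9 FPKM with siScrambled. By the same measure, the genes most like Per2 were Kctd15, Dmxl1 and Tcta, at 0.0231, 0.0361 and 0.0366. Kctd15 had 5.15, 4.78 and 4.46 FPKM with siSirt7, against 6.24, 7.65 and 7.65 FPKM with siScrambled. As for Per2, siScrambled replicate 1 was the lowest of its group, which the choice by likeness to Per2 favours.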

How the data were processed

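The deposited values are FPKM, 1 per annotated transcript and library, per the file headers. HISAT2 and GRCm38 (mm10) are named in the submitters' processing notes for the authors' steps from reads to FPKM. No source used here names the annotation release or the program that estimated FPKM. Each listed transcript averaged over 0.5 FPKM in siSirt7, siScrambled or both. Among 432 low transcripts, at most 6 shared 1 ratio between 2 libraries to 3 significant digits, so no whole-read steps were found. With depth unknown, this check may miss such steps, and counting error is unknown.

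Transcripts were summed to genes. limma 3.58.1 (trend and robust options, R 4.3.3) was run on log2(FPKM + 1), with a pseudocount of 1, on all 10854 genes that averaged 1 FPKM or more, and p-values were adjusted by Benjamini-Hochberg over all of them. It was tested on simulated data. Python 3.11.15, numpy 2.4.6, pandas 2.3.3 and matplotlib 3.10.9 were used. The clock genes, lists and tests were chosen with earlier results of these data known. Named genes are the 10 clock genes, Sirt7, each called gene of the other clock lists, and for the 2 clock genes with the smallest adjusted p the 3 genes most like each. Genes of the lists that were not called were named after their values were seen. The alternatives tried were scaling by median of ratios, quantile normalization, a filter at 5 FPKM or none, pseudocounts (0.1 and 0.5), limma without its trend and robust options, replicate number as a block, tests of single transcripts, and each library left out in turn.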

Additional observations from a re-analysis of the deposited data

How the results depend on the processing

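Bhlhe40 kept its call in all 15 alternatives, with adjusted p up to 0.0115. Per2 and Per3 kept theirs under both other scalings, both other pseudocounts, no filter and without the trend and robust options, and neither was tested under a filter at a mean of 5 FPKM. Under that filter, with the replicate number as a block and with single transcripts, 1 clock gene was called higher and 0 lower. Leaving out 1 library gave 1 higher throughout and 0 to 1 lower. Same-numbered libraries showed no sign of a pairing (correlations of their deviations 0.007, 0.033 and -0.015), but the labels do not say whether they share an isolation. With the block Per2 and Per3 had limma adjusted p of 0.0553 and 0.0756. Over all genes, single transcripts gave 714 genes higher and 674 lower, against 1380 and 1356, and leaving out 1 library gave 953 to 1105 higher and 900 to 1117 lower, the lowest without siScrambled replicate 2. The clock gene median ran from -0.13 to -0.039 as libraries were left out and was 0.014 with single transcripts. Signs turned for Arntl, Per1, Cry1, Nr1d1 and Klf10, in values not called under the setting that turned them. Cry1 had 0.016 and Nr1d1 0.0015 after quantile normalization, Cry1 ran from -0.073 to 0.0023 and Nr1d1 from -0.085 to 0.036 as libraries were left out, and as main transcripts Arntl had 0.20, Per1 0.29 and Klf10 -0.52, the last against a called rise of its sum. The cause was not tested. Over all genes the replicate block gave 946 genes higher and 981 lower. Depth is unknown, and with 3 libraries per group at 1 time the data show neither phase nor amplitude.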
